A study of Arabidopsis thaliana with 12 samples.

Results

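The genes described here are 10 Arabidopsis genes that make, break down or respond to cytokinin, taken from a table of 25872 genes by their locus identifiers. They are the synthesis genes *IPT3* (AT3G63110), *IPT5* (AT5G19040) and *IPT7* (AT3G23630), the breakdown genes *CKX1* (AT2G41510), *CKX2* (AT2G19500) and *CKX4* (AT4G29740), and the response regulators *ARR4* (AT1G10470), *ARR5* (AT3G48100), *ARR7* (AT1G19050) and *ARR15* (AT1G74890). All 10 were found in the table, and 9 of them passed the filter on low values, while *ARR15* did not.

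Cytokinins are adenine-derived hormones that promote cell division in the shoot and, in the root, hold back elongation and favour the change from division to differentiation near the tip. Isopentenyltransferases (IPT) add the isoprenoid side chain to adenine nucleotides, and cytokinin oxidases/dehydrogenases (CKX) remove it again, so the level of the hormone depends on both families. A bound receptor passes phosphate through phosphotransfer proteins to type-B response regulators (ARR), which switch on target genes. Among those targets are the type-A ARR genes, whose products dampen the pathway and whose transcripts are widely used as a readout of it.

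The expression of these genes was measured by RNA-seq in roots of *Arabidopsis thaliana* in 4 groups with 3 libraries each. The groups were *GmNTL4*-overexpressing plants with Al (OX Al), wild type with Al (WT Al), *GmNTL4*-overexpressing plants without Al (OX control) and wild type without Al (WT control). *GmNTL4* encodes a soybean NAC transcription factor with a membrane anchor, and it was driven by a constitutive viral promoter (35S), so that its expression was not limited to one cell type. The transgenic plants were homozygous for the insertion, and WT carried no transgene. A pair of overexpressing lines was selected in the study, and which of them, or both, gave the RNA is not stated in the sources used here. Al was given at 5 µM in a nutrient solution of pH 4.5 without phosphate, for 48 h according to the methods and for 24 h according to the sample labels. Only the seedlings given Al are described in the methods, so the control libraries rest on their sample labels alone. Nothing states that the 3 libraries of a group came from separate sets of plants, so p-values measure the spread between these libraries, which may be technical.

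Values are FPKM, that is fragments divided by a length per gene and by the library's total. Whole fragments could be read back from them for 100% of the genes. The libraries held 16165421 to 17138962 fragments on genes, and within groups the log2 values correlated at 0.951 to 0.983. All 8 root marker genes were detected, and their summed level was 94.2 to 111 FPKM in OX Al, 99.7 to 143 FPKM in WT Al, 135 to 146 FPKM in OX control and 89.7 to 172 FPKM in WT control. Of 8 genes of shoot photosynthesis, all were also detected in every group, and here WT libraries stood apart from each other. Their summed level was 63.1 to 92.3 FPKM in OX Al, 30.0, 501 and 341 FPKM in WT Al replicates 1, 2 and 3, 43.1 to 54.9 FPKM in OX control, and 284, 64.0 and 39.3 FPKM in WT control replicates 1, 2 and 3. The summed level of genes known to be induced by Al (3 in the table) was 303 to 580 FPKM in the Al libraries and 170 to 293 FPKM in replicates 2 and 3 of the controls. Replicate 1 of the controls was lower in both genotypes, at 47.1 FPKM in OX and 26.8 FPKM in WT.

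The sequence before the start of the 7 breakdown and response genes was searched for AGATT, the core of the site to which type-B ARR proteins bind, and for AAGATNTT, its extended form, on both strands of the 250 bases upstream of the annotated gene start (TAIR10.1). AAGATNTT contains AGATT where N is T, so such a site counts for both. AGATT was found in 4 of the 7 genes, and in 63.4% of 31329 windows of the same length over all genes. AAGATNTT was found in *ARR7* alone, where it occurred 2 times, and in 11.5% of all windows. The windows of *ARR7* and *ARR15* are shown because these response regulators held AGATT, with the most copies in *ARR7* and a single copy in *ARR15*, the gene with the fewest fragments. Capitals mark AGATT or AAGATNTT on the strand shown, or the complement AATCT of the core on the other strand, and each window runs 5′ to 3′ towards the gene start. The positions are chr1:6579315-6579564 on the minus strand for *ARR7* and chr1:28133026-28133275 on the minus strand for *ARR15*.
ARR7 promoter: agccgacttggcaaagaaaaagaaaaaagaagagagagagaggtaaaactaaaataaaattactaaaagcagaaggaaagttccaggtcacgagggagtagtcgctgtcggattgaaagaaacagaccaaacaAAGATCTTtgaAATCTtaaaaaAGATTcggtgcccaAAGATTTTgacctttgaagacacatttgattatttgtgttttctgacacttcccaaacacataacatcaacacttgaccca
ARR15 promoter: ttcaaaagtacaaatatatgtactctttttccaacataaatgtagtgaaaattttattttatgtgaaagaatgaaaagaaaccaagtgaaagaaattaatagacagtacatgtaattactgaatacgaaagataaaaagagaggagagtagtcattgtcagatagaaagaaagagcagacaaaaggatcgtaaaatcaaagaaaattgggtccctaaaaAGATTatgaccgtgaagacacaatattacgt
In *ARR7* the 3 copies of AGATT began between 106 and 80 bases before the gene start. The copy nearest the start lay within an AAGATNTT site, and the other AAGATNTT site lay just upstream of the 3 copies. *ARR15* had 1 copy, 31 bases before the start, *CKX2* had 3 and *CKX1* had 1, while *CKX4*, *ARR4* and *ARR5* had none in this window. The windows of *CKX1* and *CKX2* overlapped another annotated gene and are not shown. CATGT, a motif bound by NAC proteins, was found in *CKX1*, *ARR4* and *ARR15*, that is in 3 of the 7 windows against 34.7% of all windows. A match to these letters is a description of the sequence and does not show that a protein binds there.

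The levels of the 10 genes, which FPKM allows to be compared per length, spanned a wide range in every group. *ARR4* was the most abundant, with 35.2 ± 3.62 FPKM in OX Al, 45.9 ± 12.02 FPKM in WT Al, 49.2 ± 1.90 FPKM in OX control and 57.1 ± 3.83 FPKM in WT control (SD, n = 3 each). *ARR5* and *IPT5* came next, and their ranges overlapped in each group except OX Al. *CKX1* and *ARR15* were the lowest in each group. In between lay *ARR7*, *IPT3*, *IPT7*, *CKX4* and *CKX2*, whose order differed between groups. In OX Al *CKX4* had rank 8, below *CKX2*, *IPT7* and *IPT3*, and its range overlapped that of *IPT3*. In both controls it had rank 4, just above *ARR7*, with which its range overlapped. In WT Al each gene from *ARR5* to *ARR15* overlapped the next one down.

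**Figure D1:**
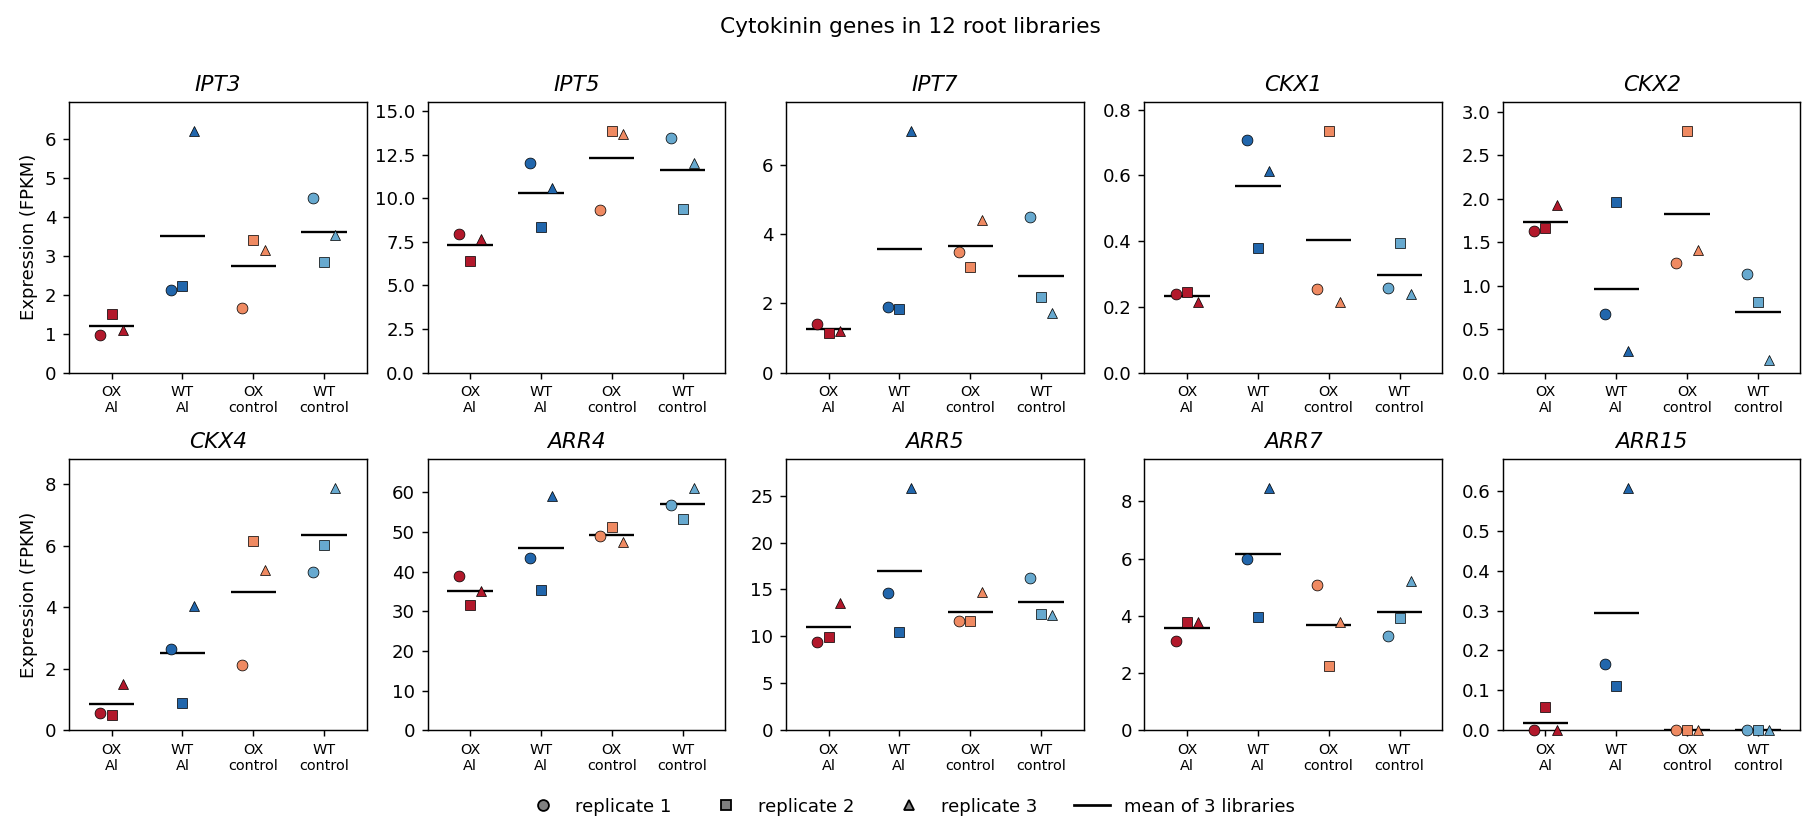
Expression (FPKM, linear axes from 0) of the 10 cytokinin genes in the 12 root libraries. Each symbol is a library, its shape gives the replicate number and the bar is the mean of the 3 libraries of a group. Of the 9 tested genes, all except *CKX2* had their lowest group mean in OX Al, and WT Al replicate 3 lay above the other WT Al libraries for 7 of the 10 genes.

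No cytokinin gene passed the test in any comparison between groups. The test was limma over all 12 libraries, with limits of 0.05 on the adjusted p and of 1 on the size of the log2 difference. By these limits 0 of the 9 tested genes were called in OX against WT under Al, where 0.0385% of the 20773 tested genes were called. The count was also 0 of 9 in OX against WT in control (0.0433% of all tested genes called), in Al against control in OX (0.862%) and in Al against control in WT (0.332%). Limma with voom weights on the fragments also called 0 of 9 in each of these comparisons. The study used another method (DEGseq) and named zeatin biosynthesis among the processes of its genes that differed between OX and WT under Al. Which genes those were is not stated in its text. The directions and ranges that follow describe these libraries. A group with fewer cells of a type and one with less RNA per cell cannot be told apart in whole roots. Under Al, 4 phloem and vascular marker genes summed to 70.7 to 72.6 FPKM in OX and 62.4 to 79.2 FPKM in WT. Of these genes, 2 were higher and 2 lower in OX. The 4 markers of dividing cells summed to 29.2 to 48.5 FPKM in OX Al and 25.0 to 43.2 FPKM in WT Al. For 4 markers of shoot epidermis the sums were 61.5 to 90.2 FPKM and 46.2 to 53.2 FPKM. The part of such cells in the differences was not tested.

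*IPT3*, *IPT5* and *IPT7* were lower in OX roots than in WT roots under Al, without passing the test. *IPT3*, an isopentenyltransferase of the phloem that responds to nitrate, had 0.977, 1.52 and 1.09 FPKM in OX Al, against 2.11, 2.21 and 6.22 FPKM in WT Al. In the controls it had 1.65, 3.42 and 3.15 FPKM in OX and 4.49, 2.85 and 3.53 FPKM in WT. All 3 OX Al libraries thus lay below all other libraries of the series, and the highest of the 12 was WT Al replicate 3. On the log2(FPKM + 0.5) scale, which understates the change of low genes, *IPT3* was lower in OX than in WT under Al by a difference of -1.11 (SE 0.36, adjusted p = 0.370), and the difference was -0.66 without WT Al replicate 3. Between Al and control it differed by -0.90 in OX (SE 0.36, adjusted p = 0.289) and by -0.17 in WT (SE 0.36, adjusted p = 0.897).

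*IPT5*, known from lateral root primordia and the root cap, was the most abundant of the synthesis genes. It had 7.94, 6.4 and 7.68 FPKM in OX Al, against 12.02, 8.36 and 10.6 FPKM in WT Al, and 9.32, 13.9 and 13.7 FPKM in OX control, against 13.4, 9.38 and 12.05 FPKM in WT control. The OX Al libraries were again below all 9 others, by a narrow gap to WT Al replicate 2. The log2 difference was -0.46 between OX and WT under Al (SE 0.19, adjusted p = 0.436), 0.07 between OX and WT in control (SE 0.19, adjusted p = 1), and -0.69 between Al and control in OX (SE 0.19, adjusted p = 0.111). *IPT5* gave 190 to 417 fragments per library, more than the other synthesis genes.

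*IPT7*, whose product is found in mitochondria, had 1.42, 1.14 and 1.19 FPKM in OX Al, against 1.89, 1.85 and 7.01 FPKM in WT Al. Its control values were 3.49, 3.07 and 4.41 FPKM in OX and 4.5, 2.20 and 1.72 FPKM in WT. As for *IPT3*, the OX Al libraries were the lowest of the 12 and WT Al replicate 3 was the highest. The log2 difference was -0.998 between OX and WT under Al (SE 0.42, adjusted p = 0.436), and -0.44 when WT Al replicate 3 was left out. Al and control differed by -1.24 in OX (SE 0.42, adjusted p = 0.204) and by 0.17 in WT (SE 0.42, adjusted p = 0.914).

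Among the breakdown genes, *CKX4* was lower with Al than in control in both genotypes, *CKX2* was higher in OX than in WT, and *CKX1* was near the limit of detection, again without passing the test. *CKX4*, which encodes a secreted oxidase and is itself induced by cytokinin, had 0.546, 0.505 and 1.49 FPKM in OX Al, against 2.11, 6.14 and 5.21 FPKM in OX control. It had 2.65, 0.898 and 4.03 FPKM in WT Al, against 5.13, 6.01 and 7.87 FPKM in WT control. In neither genotype did the Al libraries overlap the control libraries. The log2 difference between Al and control was -1.86 in OX (SE 0.46, adjusted p = 0.0805), the largest of the 9 genes in any comparison, and -1.31 in WT (SE 0.46, adjusted p = 0.259). With one library left out at a time, the difference in OX ran from -2.27 to -1.60, with adjusted p from 0.0551 to 0.341, and in WT it was -0.84 without WT Al replicate 2. Under Al, *CKX4* differed by -1.08 between OX and WT (SE 0.46, adjusted p = 0.438), with OX Al replicate 3 above WT Al replicate 2. That difference was -0.71 without WT Al replicate 3.

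*CKX2*, the other secreted oxidase of the set, went the other way between the genotypes. It had 1.63, 1.66 and 1.92 FPKM in OX Al, against 0.679, 1.96 and 0.250 FPKM in WT Al, where replicate 2 lay above every OX Al library. In the controls it had 1.26, 2.78 and 1.41 FPKM in OX, against 1.13, 0.807 and 0.144 FPKM in WT, and these libraries did not overlap. The log2 difference between OX and WT was 0.79 under Al (SE 0.45, adjusted p = 0.544) and 1.003 in control (SE 0.45, adjusted p = 1). It was 0.39 under Al without WT Al replicate 3, 1.25 without WT Al replicate 2, and 0.61 in control without WT control replicate 3. These values rest on 4 to 75 fragments per library. With Al, the difference from control was 0.00 in OX and 0.22 in WT.

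*CKX1*, an oxidase of the endomembrane system, had 0.239, 0.244 and 0.216 FPKM in OX Al, against 0.709, 0.378 and 0.614 FPKM in WT Al. The groups did not overlap, and the log2 difference was -0.53 (SE 0.25, adjusted p = 0.477). In the controls it had 0.255, 0.736 and 0.215 FPKM in OX, against 0.257, 0.395 and 0.238 FPKM in WT. With 9 to 30 fragments per library, *CKX1* reached the filter of 0.5 FPKM in 2 WT Al libraries and 1 OX control library, so that it was tested partly through the group in which it was higher.

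*ARR4*, *ARR5* and *ARR7* were lower in OX than in WT under Al as well, without passing the test. *ARR4*, a regulator that also binds phytochrome B, had 38.8, 31.6 and 35.2 FPKM in OX Al, against 43.3, 35.4 and 59.0 FPKM in WT Al. In control it had 48.9, 51.3 and 47.5 FPKM in OX, against 56.8, 53.4 and 61.1 FPKM in WT. The control groups did not overlap, with a log2 difference of -0.21 (SE 0.16, adjusted p = 1), and the Al groups overlapped, with a difference of -0.35 (SE 0.16, adjusted p = 0.454) that was -0.16 without WT Al replicate 3. Between Al and control *ARR4* differed by -0.48 in OX, where the libraries did not overlap (SE 0.16, adjusted p = 0.181), and by -0.34 in WT (SE 0.16, adjusted p = 0.407), or by -0.54 in WT without WT Al replicate 3 and -0.17 without WT Al replicate 2. At 1077 to 2136 fragments per library, *ARR4* had the smallest SE of the 9 genes.

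*ARR5*, whose promoter is a common cytokinin reporter, had 9.39, 9.94 and 13.6 FPKM in OX Al, against 14.6, 10.4 and 25.8 FPKM in WT Al. Its control values were 11.6, 11.6 and 14.7 FPKM in OX and 16.2, 12.4 and 12.3 FPKM in WT. The log2 difference between OX and WT under Al was -0.53 (SE 0.27, adjusted p = 0.509), which was -0.18 without WT Al replicate 3 and -0.81 without WT Al replicate 2. Between Al and control *ARR5* differed by -0.20 in OX (adjusted p = 0.811), or by -0.36 without OX Al replicate 3 and -0.095 without OX control replicate 3, and by 0.22 in WT (adjusted p = 0.798).

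*ARR7*, which with *ARR15* acts in the stem cell niches of root and shoot, had 3.13, 3.79 and 3.79 FPKM in OX Al, against 5.998, 3.97 and 8.46 FPKM in WT Al. These groups did not overlap, though WT Al replicate 2 lay close to the OX Al libraries. The log2 difference was -0.66 (SE 0.29, adjusted p = 0.455), or -0.41 with WT Al replicate 3 left out. In control *ARR7* had 5.07, 2.23 and 3.77 FPKM in OX and 3.31, 3.91 and 5.22 FPKM in WT, and between Al and control it differed by 0.01 in OX (SE 0.29) and by 0.48 in WT (SE 0.29, adjusted p = 0.557), or by 0.24 in WT without WT Al replicate 3 and 0.74 without WT Al replicate 2.

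*ARR15* had fragments in 4 of the Al libraries and in none of the control libraries. Its fragments numbered 0, 1 and 0 in OX Al, 3, 2 and 11 in WT Al, and 0 in each of the 6 control libraries, so that FPKM was 0, 0.0571 and 0 in OX Al and 0.166, 0.110 and 0.607 in WT Al. The ratio of OX Al to WT Al, scaled to the library totals, was 0.0638, with a 95% exact interval of 0.00152 to 0.411 that covers counting error only. Of the 16 fragments in WT Al, 11 came from replicate 3, and without it the ratio was 0.136 (0.00288 to 1.22). These ratios compare the reads of these libraries and are not a test between conditions, and a count of 0 in a control library allows up to 3 fragments. In the limma fit without a filter, *ARR15* differed by -0.56 between OX and WT under Al (adjusted p = 0.390).

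**Figure D2:**
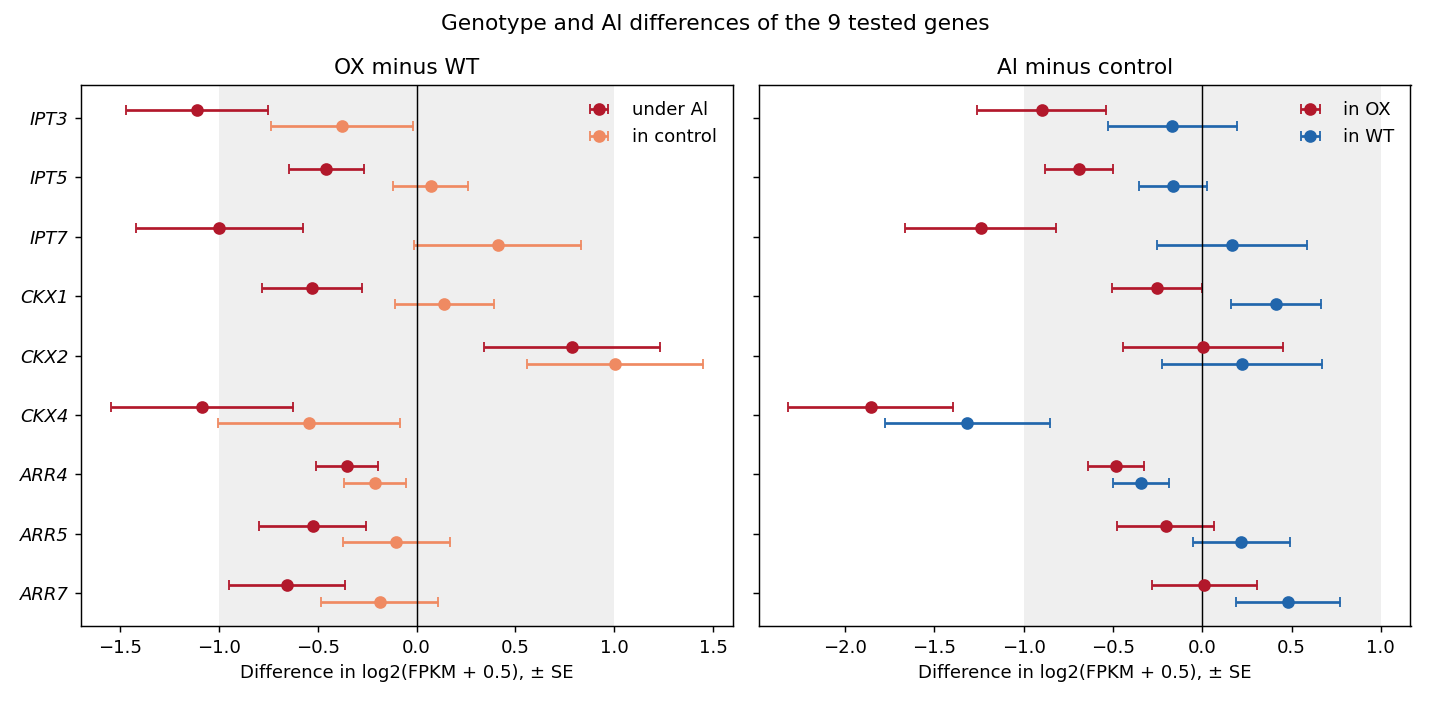
Differences in log2(FPKM + 0.5) with their SE for the 9 tested genes, OX minus WT under Al and in control (left) and Al minus control in OX and in WT (right). The shaded band marks differences under 1 in size. Under Al, 8 of the 9 genes lay left of 0 for OX minus WT, and *CKX2* lay right of it.

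Counted over the genes, OX was lower than WT under Al for 8 of the 9 tested genes, and for 55.2% of all tested genes. The median log2 difference was -0.53, against -0.03 over all tested genes. For 5 of the 9 (*IPT3*, *IPT5*, *IPT7*, *CKX1* and *ARR7*) every OX Al library lay below every WT Al library, a pattern that 10.8% of all tested genes had. *CKX1* passed the filter partly through its WT Al libraries and cannot count in support of that pattern. The 9 genes were also chosen with earlier results of these data known. The counts here and below therefore describe these genes and cannot show an excess over all tested genes. An unadjusted p of at most 0.05 with a lower level in OX was reached by 6 of 9, against 5.92% of all tested genes, and the adjusted p of the 9 ran from 0.370 to 0.544. The split of 8 lower and 1 higher was the same with each library left out. The count of 6 was not, and it also fell without some control libraries, which enter only the shared variance. It was 1 without OX Al replicate 2 (3.41% of all tested genes), 1 without WT Al replicate 3 (3.23%), 2 without WT Al replicate 1 (4.42%), and 3 without OX Al replicate 1 (5.33%) or OX Al replicate 3 (3.87%). It was 4 without OX control replicate 3 or WT control replicate 2, and 8 without WT Al replicate 2 (8.81%). The fit of only these groups gave 3 (6.43%), and voom (5.87%) and median-ratio scaling (4.44%) gave 4 each. The median was -0.43 without WT Al replicate 3 and -0.81 without WT Al replicate 2. Without WT Al replicate 3 the adjusted p ran from 0.642 to 0.859 and the differences of *IPT3*, *IPT7*, *CKX2*, *CKX4*, *ARR4*, *ARR5* and *ARR7* shrank by more than 1.5 times. That library was the highest of the WT Al libraries for 6 of the 9 tested genes, against 39.6% of all tested genes, and WT Al replicate 2 was the lowest for 7 of 9, against 43.0% of all tested genes. Both libraries carried the high summed level of photosynthesis genes given above (341 and 501 FPKM), and its part in these differences was not tested.

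In control, OX was lower than WT for 5 of the 9 genes and higher for 4, and it was lower for 51.5% of all tested genes. The median was -0.10, against -0.01 over all tested genes. Only *ARR4* (lower in OX) and *CKX2* (higher in OX) had groups that did not overlap, which 3.91% of all tested genes did in the lower direction and 3.93% in the higher. *CKX2* alone had an unadjusted p of at most 0.05, against 2.88% of all tested genes in the higher direction, and it no longer had one when any of 8 single libraries was left out. The median was 0.02 without WT control replicate 1, and between -0.05 and -0.03 without OX control replicate 1, OX control replicate 2 or WT control replicate 3. It was -0.19 without OX control replicate 3 and -0.16 without WT control replicate 2.

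In OX roots, Al libraries were lower than control libraries for 7 of the 9 genes, and for 51.9% of all tested genes. The median was -0.48, against -0.01 over all tested genes. For *IPT3*, *IPT5*, *IPT7*, *CKX4* and *ARR4*, that is 5 of 9, the libraries did not overlap, against 11.4% of all tested genes in this direction, and the same genes had an unadjusted p of at most 0.05 (7.08% of all tested genes). OX control replicate 1 was the lowest OX control library for 5 of the 9 genes, against 37.7% of all tested genes. Its Al-inducible genes summed to 47.1 FPKM, against 277 and 293 FPKM in OX control replicates 2 and 3. The median was -0.49 without OX control replicate 1, and the part of this difference between controls was not tested. In WT roots the directions were split, 4 lower and 5 higher with Al, where 47.6% of all tested genes were lower. The median was 0.17, against 0.01 over all tested genes. *CKX4* alone was apart there, against 8.17% of all tested genes in the lower direction, and it alone had an unadjusted p of at most 0.05 (5.97% of all tested genes in that direction). The split was 6 lower and 3 higher without WT Al replicate 3, with a median of -0.19, and without WT control replicate 3, with a median of -0.13. Without WT Al replicate 2 or WT control replicate 3 no gene had an unadjusted p of at most 0.05 in the lower direction. The comparison of genotypes under Al and that of Al with control in OX both use the OX Al libraries, so their values for a gene are not independent.

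The question whether the genotype difference itself differed between Al and control was tested as an interaction, and limma called 0 of the 9 genes and 0% of all tested genes, of which 1035 (4.98%) had an unadjusted p of at most 0.05. All 9 interaction terms were negative, as were those of 54.6% of all tested genes. The terms share the same 12 libraries, so their signs are not independent. They ran from -1.41 for *IPT7* (SE 0.60, adjusted p = 0.940) to -0.14 for *ARR4* (SE 0.22, adjusted p = 0.98), with a median of -0.53 against -0.03 over all tested genes. *IPT7* was the only one with an unadjusted p of at most 0.05, against 2.43% of all tested genes in this direction, and its term was -0.85 without WT Al replicate 3. The median was -0.29 without that library, and 0 of the 9 had such a p when it or any of 5 other libraries was left out. The shared sign did not hold with every library left out: *ARR4* was at 0.054 without WT Al replicate 3, and *CKX2* was at 0.25 without WT Al replicate 2, 0.063 without OX control replicate 2 and 0.18 without WT control replicate 3. Voom also called 0 of the 9.

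**Figure D3:**
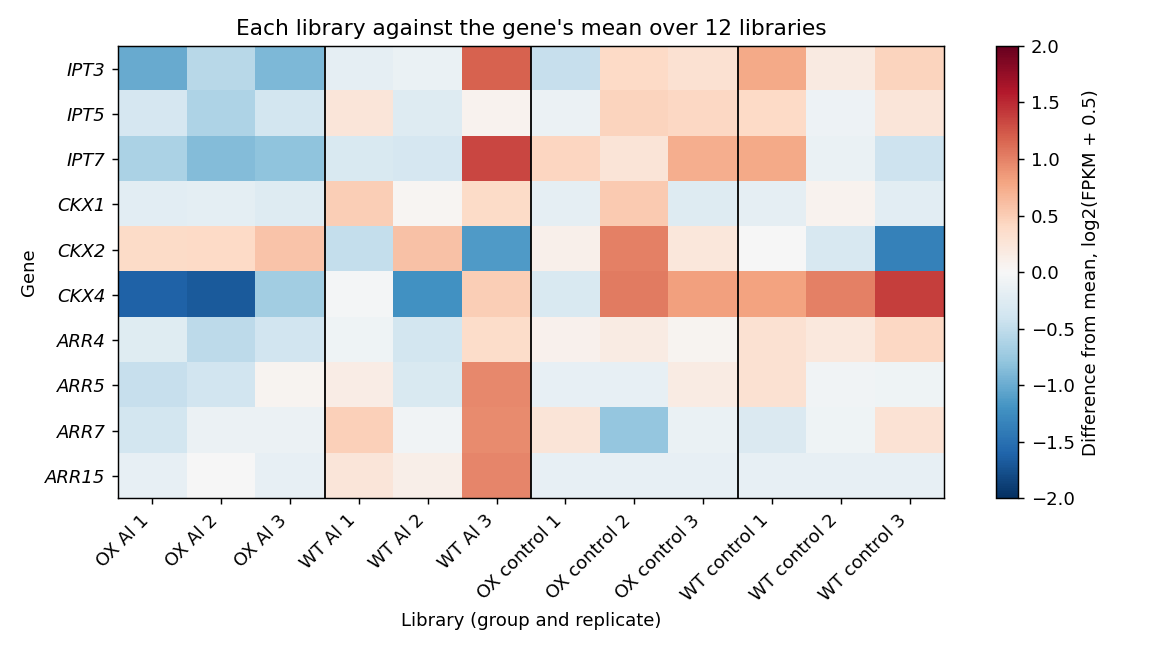
Level of each cytokinin gene in each of the 12 libraries as the difference from the gene's mean over the libraries, in log2(FPKM + 0.5). Red is above and blue below the mean, the columns are the libraries by group and replicate, and WT Al 3 and the OX Al libraries show the strongest colours of opposite sign for *IPT3* and *IPT7*.

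Across the 12 libraries the levels of several of the genes ran in parallel, as a description in which the points share 4 groups and the libraries' own differences. Pearson's r of the log2 values was 0.79 between *IPT3* and *IPT7*, 0.71 between *IPT3* and *IPT5*, 0.89 between *CKX4* and *ARR4* and 0.84 between *CKX4* and *IPT5*. *CKX2* ran against *ARR7* with an r of -0.80 and against *ARR4* with -0.63. Among all 20772 other tested genes, the 3 most like *CKX4* were AT4G12270, AT4G15390 and *TBL33*, each with an r of 0.94, and *ARR4* ranked 29 and *IPT5* ranked 123. The mean level of *TBL33* was 7.46 FPKM in OX Al, 11.2 FPKM in WT Al, 13.6 FPKM in OX control and 18.4 FPKM in WT control, the order of groups that *CKX4* also had. *TBL33* was picked for its likeness to *CKX4*, so the shared order is no separate result.

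The rest of the pathway was followed in 56 further genes, of which 49 were in the table and 43 were tested. None was called in any comparison or in the interaction, and the lowest adjusted p was 0.407 for OX against WT under Al, 0.694 for OX against WT in control, 0.12 for Al against control in OX and 0.233 in WT. Under Al, 23 of the 43 were lower and 20 higher in OX than in WT, with a median log2 difference of -0.01, while in OX 19 were lower and 24 higher with Al than in control, with a median of 0.04.

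Of the other synthesis genes (10 tested), 7 were higher and 3 lower in OX than in WT under Al, with a median log2 difference of 0.02. *LOG7*, one of the enzymes that release active cytokinin from its nucleotides, had 35.8, 48.7 and 41.9 FPKM in OX Al, against 38.0, 28.3 and 28.1 FPKM in WT Al. The libraries overlapped, with a log2 difference of 0.42 (SE 0.16) and an adjusted p of 0.407, the lowest of the 43 genes in this comparison. *LOG1*, *LOG3* and *LOG4* of the same family differed by 0.46, 0.44 and 0.51, with adjusted p from 0.474 to 0.528, and these 4 genes were picked after their values were seen. The other tested genes of the family did not share this, with -0.15 for *LOG5* (adjusted p = 0.803) and 0.02 for *LOG8* (adjusted p = 0.969). *CYP735A2*, which with *CYP735A1* hydroxylates the side chain to give trans-zeatin, had 4.41, 4.05 and 6.07 FPKM in OX Al, against 4.78, 4.45 and 13.3 FPKM in WT Al. The log2 difference was -0.43 (SE 0.33, adjusted p = 0.649), and WT Al replicate 3 again had the highest value. *CYP735A1* was low, at 0.300 to 0.411 FPKM in OX Al and 0.348 to 0.958 FPKM in WT Al. Of the other breakdown and conjugation genes (7 tested), *UGT85A1*, which attaches glucose to zeatin, had 6.20, 5.17 and 11.04 FPKM in OX Al, 7.98, 8.32 and 17.3 FPKM in WT Al, 3.84, 4.53 and 7.40 FPKM in OX control and 12.1, 2.83 and 1.45 FPKM in WT control. Its largest log2 difference, 1.34 between Al and control in WT, had an SE of 0.58 and an adjusted p of 0.375, and the libraries overlapped. *UGT73C5*, which also glucosylates brassinosteroids, differed by 0.91 between Al and control in OX (SE 0.50, adjusted p = 0.468).

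Among 9 receptors and phosphotransfer proteins, *AHP4*, a weakly expressed phosphotransfer gene, had 0.809, 0.857 and 0.643 FPKM in OX control, against 0.314, 0.187 and 0.0640 FPKM in WT control. The log2 difference was 0.90 (SE 0.27, adjusted p = 0.694), but no WT control library reached the 0.5 FPKM of the filter, which *AHP4* passed through the other groups, and under Al the difference was 0.39 (SE 0.27, adjusted p = 0.607). *AHP6*, a pseudo-phosphotransfer protein that inhibits the pathway, had 2.503, 3.31 and 2.76 FPKM in OX Al, against 1.60, 2.70 and 1.47 FPKM in OX control, a log2 difference of 0.50 (SE 0.24, adjusted p = 0.410).

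Among the other type-A regulators, 5 were tested. Under Al, 4 were lower and 1 (*ARR16*) higher in OX than in WT, with a median log2 difference of -0.22. For the 4 that were lower, WT Al replicate 3 was the highest WT Al library. It had 7.54 FPKM for *ARR3*, 15.7 FPKM for *ARR6*, 20.5 FPKM for *ARR8* and 10.7 FPKM for *ARR9*. In OX roots, 4 were lower and 1 higher with Al than in control, with a median of -0.30. *ARR16* had 0.726, 0.979 and 1.31 FPKM in OX Al, against 0.450, 0.238 and 0.407 FPKM in OX control, and 0.488, 0.716 and 0.574 FPKM in WT Al, against 0.227, 0.282 and 0.0867 FPKM in WT control. *ARR16* passed the filter of 0.5 FPKM through the Al libraries alone, since all 6 control libraries were under it, so a higher level with Al was bound to be seen. The log2 differences were 0.79 in OX (SE 0.22, adjusted p = 0.12) and 0.65 in WT (SE 0.22, adjusted p = 0.251). *ARR8* had 13.8, 10.4 and 10.6 FPKM in OX Al, against 16.2, 14.98 and 20.3 FPKM in OX control, a log2 difference of -0.54 (SE 0.22, adjusted p = 0.298). Between OX and WT under Al *ARR8* differed by -0.49 (SE 0.22, adjusted p = 0.457), and the libraries overlapped.

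Of the 6 tested type-B regulators, *ARR11* differed by 0.45 between Al and control in OX (SE 0.18, adjusted p = 0.277), and *ARR12*, a main activator of the pathway in roots, had 16.1, 14.8 and 16.5 FPKM in OX Al, against 16.9, 17.6 and 24.2 FPKM in WT Al. The log2 difference of *ARR12* was -0.29 (SE 0.16, adjusted p = 0.543), and WT Al replicate 3 was its highest WT Al library. Every OX Al library lay below every WT Al library for 3 of the 6 (*ARR1*, *ARR2* and *ARR12*), against 10.8% of all tested genes. Of the 6 cytokinin response factors, *CRF4* differed by -0.57 between OX and WT under Al (SE 0.34, adjusted p = 0.553) and *CRF3* by 0.54 between Al and control in WT (SE 0.23, adjusted p = 0.362).

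**Figure D4:**
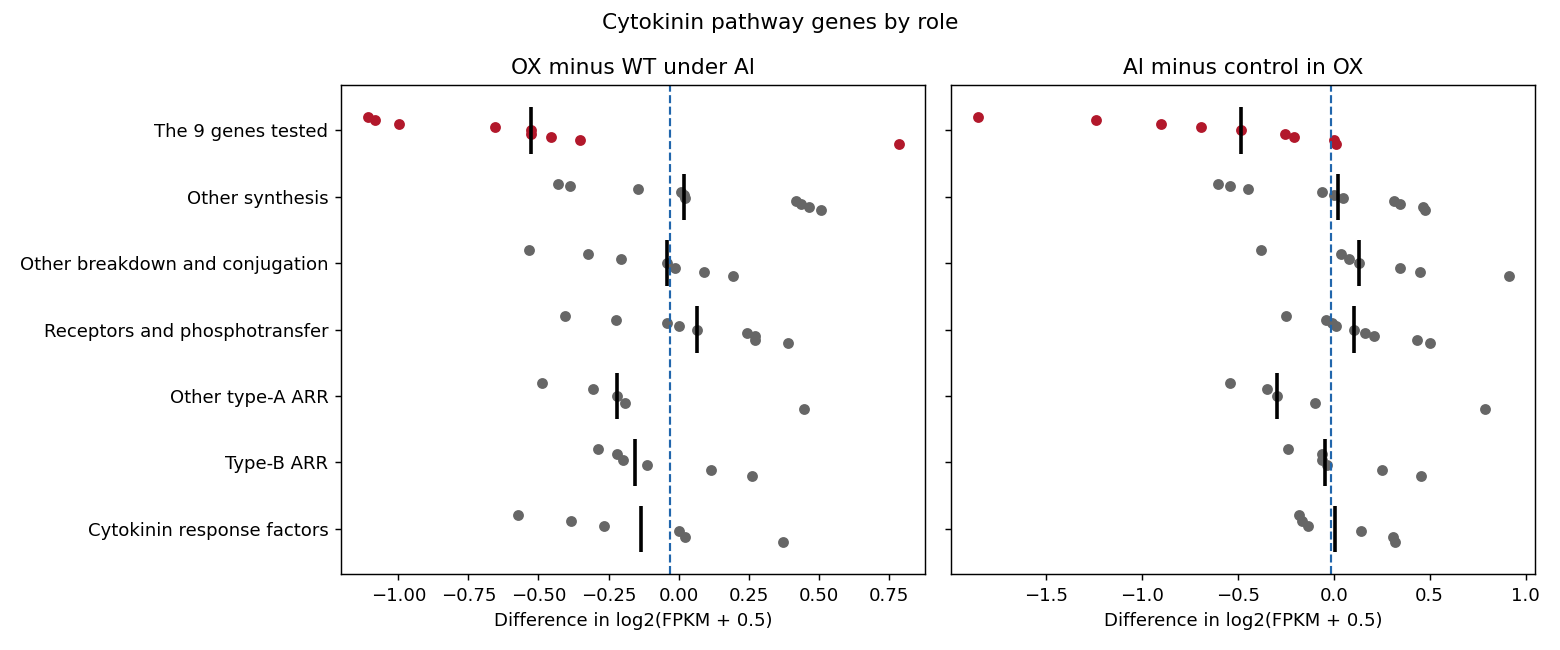
Differences in log2(FPKM + 0.5) of the 9 tested genes (red) and of the other tested pathway genes by role (grey), OX minus WT under Al (left) and Al minus control in OX (right). Points are genes, black bars are medians and the dashed line is the median of all tested genes. The 9 genes had medians of -0.53 and -0.48, while the 43 other genes had medians of -0.01 and 0.04. Among the 43, the other type-A regulators had medians of -0.22 and -0.30. The type-B regulators had -0.16 and -0.05, and the cytokinin response factors -0.13 and 0.01. Medians were 0.02 and 0.03 for other synthesis, -0.04 and 0.13 for other breakdown and conjugation, and 0.07 and 0.11 for receptors and phosphotransfer.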

How the data were processed

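RNA-seq libraries of *Arabidopsis thaliana* roots (4 groups, 3 libraries each) took their groups from the sample titles. The authors used HISAT2 to align reads to TAIR10 and HTSeq 0.6.0 (version from the submitters' processing notes) to count them per gene, and deposited FPKM per gene and library. Columns were matched to samples by the initials of their titles. Dividing each gene's FPKM by the value of 1 fragment gave whole numbers. The tolerance was relative (1e-06) for large fragment numbers and a fixed amount for small ones. The lengths implied were whole for 99.9886% of the 17473 genes under 2000 bp. For *CKX1*, *CKX4* and *ARR4* they were 2521, 2318 and 2099 bp, above the longest RefSeq transcripts (2401, 2186 and 2017 bp). The identifiers of 25579 genes were found in TAIR10.1 (RefSeq), the source of symbols, positions and sequences, in which *ARR5* is named *RR5*.

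The fit was limma 3.58.1 (R 4.3.3) on log2(FPKM + 0.5), 1 mean for each group over the 12 libraries, with a trend in the moderated variances. A minimum of 0.5 FPKM in 3 libraries left 20773 genes, over which Benjamini-Hochberg adjustment was made. The log2 fold change limit was 1. The fits were tested on simulated data. Alternatives were pseudocounts of 0.1 and 1, no filter, median-ratio scaling, only the groups compared, a replicate block, an adjusted p of at most 0.05 alone, limma voom on fragments with library totals and leaving out each library. For ARR15, ratios of summed fragments were given exact intervals.

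The 10 genes, and of each further pathway list the 2 genes with the largest log2 fold change in any comparison of 2 groups, are named, with the 3 genes most like the member of the largest difference. The *LOG* genes and some further response regulators are also named, outside this rule and after their values were seen. The members and lists were chosen with earlier results of these data known, and CATGT was added after the other choices. Promoter sequences of the synthesis genes are not reported here. The *GmNTL4* transcript itself was not analysed here. Of the listed genes, 7 of 56 pathway genes and 1 Al-inducible gene were not found in the table.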

Additional observations from a re-analysis of the deposited data

How the results depend on the processing

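No cytokinin gene was called under any alternative, and the lowest adjusted p was 0.0542, for *CKX4* between Al and control in OX with the replicate number as a block. Same-numbered libraries correlated from -0.247 to 0.286 in their deviations, with 8 of 18 pairs over 0.1, so they were not treated as paired, which does not show that the numbers carry nothing. With that block the counts of genes called of all tested were 4 for OX against WT under Al (8 without it), 2 in control (9), 213 for Al against control in OX (179), 85 in WT (69) and 0 for the interaction (0). Voom gave 5 for OX against WT under Al. Of 306 member differences under alternatives that keep all libraries, 305 kept their direction. The exception was *CKX2* between Al and control in OX, at -0.00408 with a pseudocount of 1. For OX against WT in control, a pseudocount of 1 and no filter each gave 5 called genes, the fit of only the groups compared 0 and voom 2. Al against control gave 39 in OX in the fit of only the groups compared and 38 in WT without a filter, and the interaction gave 1 without a filter. With each library left out in turn, the calls of all genes ran from 1 to 10 for OX against WT under Al, 1 to 10 in control, 3 to 490 for Al against control in OX, 0 to 152 in WT and 0 to 0 for the interaction, and the cause was not tested. Among the member differences 517 of 540 kept their direction, and 12 differences changed sign. For OX against WT in control these were *IPT5* (-0.070 to 0.25), *CKX1* (-0.11 to 0.28), *ARR5* (-0.21 to 0.023) and *ARR7* (-0.42 to 0.092). For Al against control they were *CKX2* (-0.17 to 0.28) and *ARR7* (-0.27 to 0.25) in OX, and *IPT3* (-0.61 to 0.070), *IPT7* (-0.39 to 0.51), *CKX2* (-0.24 to 0.62) and *ARR5* (-0.13 to 0.51) in WT. For the interaction they were *CKX2* (-0.61 to 0.25) and *ARR4* (-0.31 to 0.054). Depth limits *ARR15*, *CKX1* and *CKX2*, which rest on 0 to 11, 9 to 30 and 4 to 75 fragments per library.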
